A study of Drosophila melanogaster with 16 samples.

Results

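The interaction of mitotype and diet was measured over all 16 RNA-seq libraries of the series and across all genes, with no gene chosen beforehand. For each gene it was the log2 difference of Dahomey over Alstonville on the 1:16 diet minus the same difference on the 1:2 diet. A positive value means that Dahomey stood higher relative to Alstonville on 1:16 than on 1:2, and a negative value the opposite. Of 17207 genes counted, 12750 had enough reads to test (0.25 CPM in at least 4 libraries, where CPM are counts per 1e+06 counts of the library).

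The 4 groups of 4 libraries were larvae with Dahomey mtDNA on 1:16, larvae with Alstonville mtDNA on 1:16, Dahomey larvae on 1:2 and Alstonville larvae on 1:2. P:C is the ratio of protein to carbohydrate in food of equal calories, so that 1:16 is the food poor in protein and rich in sugar. Both mitotypes (mitochondrial genomes) sat in a nuclear background made common by chromosome replacement and repeated crossing to w1118, and by the study's methods chromosome 4 could also differ between the lines. Mitotype and any remaining chromosome 4 difference therefore cannot be told apart. The labels give the material as larvae of the third instar, and the methods describe female wandering larvae taken from the side of the bottle. No label names a batch, and the series describes the replicates of each combination as independent without saying what was replicated, so that p-values measure the spread between these libraries.

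Larvae of the third instar grow while their imaginal discs, the epithelial pouches that form adult wings, legs and eyes, and their neuroblasts go through mitosis, whereas gut, fat body and salivary gland cells enlarge by replicating DNA without dividing. A larva leaves the food to wander under a rise of the steroid ecdysone, and at that time the salivary glands make glue proteins and the fat body makes storage proteins. Transcripts for mitosis are therefore known mainly from discs and the nervous system. In RNA of a bulk sample, fewer cells of a type and less RNA per cell cannot be told apart.

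Depth was even, with 24869991 to 31896525 counts per library, but several libraries stood apart from their labels before any contrast was made. The male dosage compensation RNA roX1 reached 258 to 347 CPM in Dahomey and 113 to 503 CPM in Alstonville libraries on 1:16. On 1:2 it was 189 and 685 CPM in Dahomey replicates 2 and 4 and 152 and 191 CPM in Alstonville replicates 2 and 3, and at most 20.8 CPM in the other 4 libraries. Male RNA was thus present in 12 of 16 libraries described as female. The summed testis and Y-linked markers (36 genes) ran from 123 to 286 CPM in Dahomey and from 51.6 to 86.2 CPM in Alstonville libraries on 1:16. The 7 salivary glue genes summed to 2768 CPM in Dahomey 1:16 replicate 2 and to between 4.83 and 7.43 CPM in the other 7 libraries on 1:16, against 9620 to 18037 CPM on 1:2. By this marker 1 library on 1:16 resembled the libraries on 1:2 more than its own group. Storage proteins summed to 31897 to 48682 CPM in Dahomey libraries on 1:16, against 5571, 35834, 5380 and 11733 CPM in Alstonville libraries on 1:16. Muscle sarcomere genes summed to 39062 to 75577 CPM in Dahomey and 78913 to 90509 CPM in Alstonville libraries on 1:16. On 1:2 they summed to 8066 to 19913 CPM in Dahomey and to 5983, 8485, 13362 and 42459 CPM in Alstonville libraries. Alstonville 1:2 replicate 4, the last of these, also stood above its group for Jonah proteases (24814 against 4714 to 10885 CPM). Its storage protein sum was 145233 CPM, against 47630 to 73652 CPM in the rest of its group. Its glue sum, 10608 CPM, lay within the range on 1:2. These values move with the contrast, and their part in it was not tested. Counts of calls with such libraries left out are given beside the main count.

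**Figure D1:**
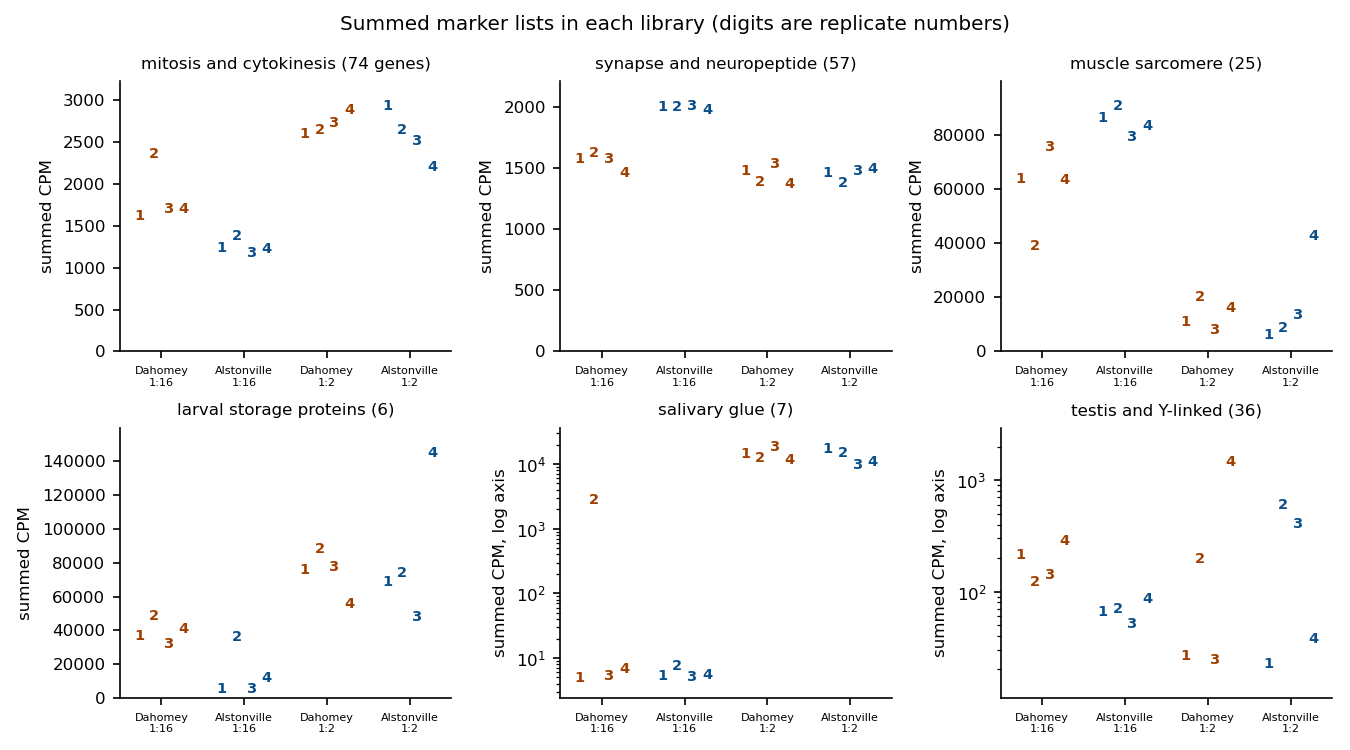
Summed CPM of 6 gene lists in each library, with groups along the horizontal axis and the replicate number drawn at its value. Glue and testis lists are on a log axis. Dahomey 1:16 replicate 2 stands at 2768 CPM of glue transcripts, the mitosis sum is lowest in the Alstonville 1:16 libraries (1173 to 1380 CPM), and the synapse sum is highest there (1972 to 2008 CPM).

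In most of the called genes Alstonville larvae fed the 1:16 food stood apart from the other 3 groups. They were lowest for genes of mitosis such as stg, CycB and feo, and highest for genes of peptide hormone processing and neuronal signalling such as amon, 7B2 and Shal. By edgeR's quasi-likelihood test with Benjamini-Hochberg adjustment over all genes, 100 genes had an adjusted p under 0.05 (called from here on), which was 0.784% of those tested. The interaction was positive for 48 (0.376%) and negative for 52 (0.408%). At an unadjusted p under 0.05 there were 1936 (15.2%), 764 positive (5.99%) and 1172 negative (9.19%). Scaling changed the split, to 82 positive and 48 negative calls with relative log expression scaling and 129 and 26 with upper-quartile scaling, which moved the median interaction over all genes from -0.01 to 0.12. Without the 4 libraries on 1:2 that held little male RNA 4 genes were called, and without the 4 that held it 1 gene was called (CG15414), each time with 2 libraries per group left on 1:2. The count was 56 (31 positive, 25 negative) without Dahomey 1:16 replicate 2, and over the 16 fits without 1 library it ran from 4 to 396. It was 4 without Dahomey 1:16 replicate 4, Alstonville 1:16 replicate 1 or 3 or Dahomey 1:2 replicate 1, and 396 without Alstonville 1:2 replicate 4. All 100 genes kept their sign in each of these fits, which share most of the libraries that the genes were chosen by.

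Among the positive genes the median log2 difference of Dahomey over Alstonville was 1.57 on 1:16 and 0.04 on 1:2. Among the negative genes it was -0.65 on 1:16 and 0.08 on 1:2. The same numbers read by diet were, for 1:16 over 1:2, -0.50 in Dahomey and -2.06 in Alstonville for the positive genes, and 0.25 in Dahomey and 1.06 in Alstonville for the negative genes. These differences are the parts that make up the interaction and share its libraries, so they describe the called genes and test nothing further. All 4 Alstonville libraries on 1:16 lay below all other 12 libraries for 47 of the 48 positive genes, a pattern found in 7.85% of all genes tested. All 4 lay above the other 12 for 46 of the 52 negative genes, against 17.0% of all genes. On 1:2 the mitotypes had no overlapping libraries for 2 positive and 4 negative genes (2.03% of all genes), and on 1:16 for 48 and 51 (44.0%). Only 2 called genes, NT5E-2 and Dpp10, had a larger difference between mitotypes on 1:2 than on 1:16.

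**Figure D2:**
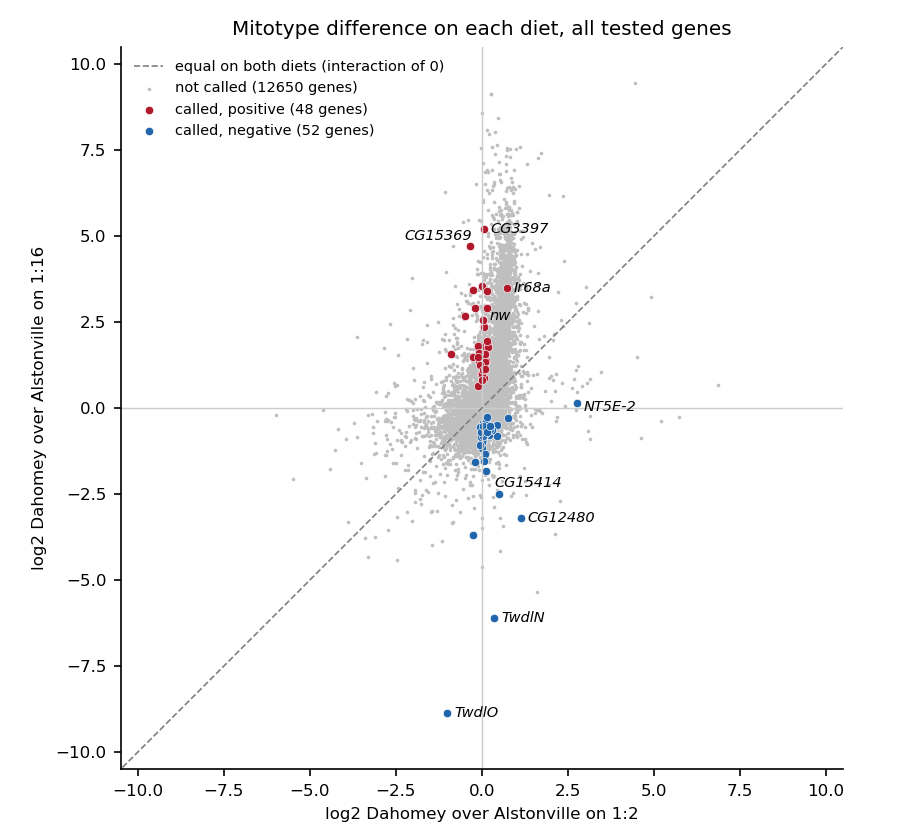
Each point is a tested gene, with its log2 difference of Dahomey over Alstonville on 1:2 along the horizontal axis and on 1:16 along the vertical axis. The dashed diagonal marks an interaction of 0. The 48 positive and 52 negative called genes spread along the vertical axis, with medians of 1.57 and -0.65 there and of 0.04 and 0.08 on the horizontal axis. The called genes farthest from 0 on the horizontal axis are NT5E-2 at 2.77 and CG12480 at 1.13.

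Genes of mitosis made up the largest recognisable block of the positive calls. Of 74 tested genes on a list of mitosis and cytokinesis genes 19 were called positive (against 0.376% of all genes) and 0 negative, 53 reached an unadjusted p under 0.05 with a positive sign (against 5.99% of all genes), and the median interaction was 1.01 against -0.01 over all genes. The 19 calls depended on single libraries. There were 0 without Dahomey 1:16 replicate 4, Alstonville 1:16 replicate 1, 3 or 4, Dahomey 1:2 replicate 1, 2 or 3 or Alstonville 1:2 replicate 2. There were 1 and 5 without Alstonville 1:2 replicates 1 and 3, and 31 and 35 without replicate 4 of Alstonville and of Dahomey on 1:2. Both fits without 4 libraries chosen by male RNA had 0 calls on the list, with medians of 1.03 and 1.17. This list was drawn up after values were seen and its counts are a description. Alstonville libraries on 1:16 lay below the other 12 for 57 of the 74 genes (against 7.85% of all genes). Summed over the list, Dahomey libraries on 1:16 held 1620, 2354, 1706 and 1697 CPM against 1230, 1380, 1173 and 1224 CPM in Alstonville libraries on 1:16. On 1:2 the sums were 2594 to 2882 CPM in Dahomey and 2203 to 2932 CPM in Alstonville larvae. Dahomey replicate 2 on 1:16, the library with glue transcripts, had the highest sum of its group, and without it the median interaction of the list was 0.88.

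Entry into mitosis is triggered when the Cdc25 phosphatase String (stg) activates Cdk1 bound to cyclin B. stg levels in Dahomey libraries on 1:16 were 15.7, 29.5, 17.2 and 21.3 CPM, against 4.44, 10.4, 4.34 and 4.94 CPM in the Alstonville libraries. On 1:2, stg levels were 38.9, 39.5, 32.7 and 33.6 CPM in Dahomey against 43.7, 32.4, 36.7 and 42.6 CPM in Alstonville libraries. Every Dahomey library on 1:16 lay above every Alstonville library there, and both groups lay below all libraries on 1:2. stg gave a log2 interaction of 1.90 ± 0.38 (adjusted p = 0.0377). Interactions are given ± SE, and adjusted p-values are those of edgeR's quasi-likelihood test. The gene for cyclin B gave the same picture with larger differences between replicates. Expression of CycB was 21.1, 45.2, 21.8 and 27.3 CPM in Dahomey and 5.86, 11.1, 6.15 and 6.65 CPM in Alstonville libraries on 1:16. On 1:2 CycB was 50, 52.6, 52.6 and 76.8 CPM in Dahomey and 56.5, 55.2, 54.2 and 42.8 CPM in Alstonville libraries. The interaction of CycB came to 1.80 ± 0.37 on the log2 scale (adjusted p = 0.045). Replicate 2 was the highest of both groups on 1:16. Cks30A, the small Cdk1-binding subunit, averaged 11.3 ± 2.11 CPM in Dahomey and 3.87 ± 1.22 CPM in Alstonville larvae on 1:16 and 13.9 ± 2.19 and 13.8 ± 1.05 CPM on 1:2 (means of 4 libraries ± SD, here and below). With 1.54 ± 0.27, Cks30A had an adjusted p of 0.0315 for the log2 interaction.

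Aurora B kinase (aurB) and its scaffold Incenp form the chromosomal passenger complex, which corrects chromosome attachment and then marks the cleavage plane. For aurB the libraries on 1:16 gave 5.67, 11.1, 5.45 and 6.3 CPM in Dahomey and 2.3, 3.11, 2.21 and 2.86 CPM in Alstonville larvae, and those on 1:2 gave 8.75, 10, 9.56 and 10.3 CPM in Dahomey and 10.3, 9.15, 9.69 and 9.66 CPM in Alstonville larvae. aurB had an interaction of 1.45 ± 0.28 (adjusted p = 0.0377). The Alstonville libraries on 1:16 were the only ones under 5 CPM. Incenp had 23.8, 36.9, 25.4 and 26.7 CPM in Dahomey and 10.4, 14.2, 8.45 and 10.9 CPM in Alstonville larvae on 1:16, and 34.9, 37.5, 33.2 and 43.5 CPM in Dahomey and 40.7, 36.3, 35.9 and 34.1 CPM in Alstonville larvae on 1:2. For Incenp the log2 interaction was 1.34 ± 0.23 (adjusted p = 0.0283). No Alstonville library on 1:16 reached the lowest of the other 12. The centrosomal kinase gene Nek2 averaged 2.63 ± 0.935 CPM in Dahomey and 0.507 ± 0.229 CPM in Alstonville larvae on 1:16 and 7.75 ± 0.93 and 7.42 ± 3.09 CPM on 1:2, with an interaction of 2.31 ± 0.49.

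Spindle genes followed. Klp61F, the kinesin-5 that pushes spindle poles apart, averaged 20.1 ± 4.26 CPM in Dahomey and 7.54 ± 1.74 CPM in Alstonville larvae on 1:16 and 28.3 ± 2.99 and 26.4 ± 3.28 CPM on 1:2, with an interaction of 1.32 ± 0.24. The minus-end motor gene ncd averaged 19.1 ± 5.01 CPM in Dahomey and 8.32 ± 1.52 CPM in Alstonville larvae on 1:16 and 24.4 ± 2.99 and 23.9 ± 0.816 CPM on 1:2 (1.17 ± 0.23). The spindle pole gene asp averaged 21.5 ± 5.53 CPM in Dahomey and 6.08 ± 2.03 CPM in Alstonville larvae on 1:16 and 30.7 ± 7.16 and 26.9 ± 2.74 CPM on 1:2 (1.63 ± 0.32). In each of these the Alstonville mean on 1:16 was below the other 3 group means by more than its SD. The centrosome scaffold gene spd-2 had an interaction of 1.50 ± 0.27. SMC2, a condensin subunit that compacts chromosomes, had one of 1.05 ± 0.22. For the spindle checkpoint genes BubR1 and rod it was 1.13 ± 0.20 and 1.08 ± 0.23, and for fzy, the Cdc20 that activates the anaphase-promoting complex, 1.78 ± 0.33. All 8 genes were called.

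Of the mitosis and cytokinesis list, feo had the lowest p. It encodes the PRC1 protein that bundles microtubules of the central spindle. On 1:16, feo transcripts measured 16.3, 26.5, 18.6 and 19 CPM in Dahomey against 4.73, 8.22, 4.56 and 5.68 CPM in Alstonville libraries, and on 1:2 they measured 24.6, 26.2, 27.2 and 33.4 CPM in Dahomey against 28.5, 27.4, 26 and 22.9 CPM in Alstonville libraries. feo gave a log2 interaction of 1.70 ± 0.27 (adjusted p = 0.0254). No Alstonville library on 1:16 overlapped with any of the other 12 libraries. Centralspindlin is made of the kinesin Pavarotti (pav) and the RacGAP Tumbleweed (tum). tum levels in Dahomey libraries on 1:16 were 16.8, 26.8, 19.1 and 20 CPM, against 6.44, 11.2, 6.99 and 7.25 CPM in the Alstonville libraries. On 1:2, tum levels were 19.7, 23.3, 20 and 23.1 CPM in Dahomey against 25.1, 20.1, 23.5 and 23.2 CPM in Alstonville libraries. The interaction of tum came to 1.47 ± 0.24 on the log2 scale (adjusted p = 0.0283). For pav the interaction was 1.40 ± 0.27, for the citron kinase gene sti 1.55 ± 0.28, and for the anillin gene scra 1.60 ± 0.32. The gene nesd, whose product acts with centralspindlin in dividing germ cells, averaged 7.89 ± 1.89 CPM in Dahomey and 2.98 ± 0.765 CPM in Alstonville larvae on 1:16 and 13.7 ± 1.65 and 13.4 ± 1.67 CPM on 1:2 (1.38 ± 0.27).

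DNA replication genes had a smaller median than mitosis genes, and the difference was not tested. The mitosis list was drawn up after values were seen, so the 2 medians cannot be compared on equal terms. Of 35 tested DNA replication genes 3 were called positive (dup, Mcm6 and CycB, the last of them also counted above) and 0 negative, against 0.376% and 0.408% of all genes. On this list 23 reached an unadjusted p under 0.05 with a positive sign (against 5.99% of all genes), and the median was 0.59. Over the 16 fits without 1 library 0 to 7 genes of this list were called. Expression of dup was 13.6, 17.8, 16.3 and 14.3 CPM in Dahomey and 7.66, 10, 7.7 and 8.73 CPM in Alstonville libraries on 1:16. On 1:2 dup was 18.4, 20.1, 19 and 23.1 CPM in Dahomey and 21.1, 17.4, 19.8 and 19.6 CPM in Alstonville libraries. With 0.81 ± 0.16, dup had an adjusted p of 0.0377 for the log2 interaction. dup encodes Cdt1, which loads the MCM helicase, and the helicase gene Mcm6 averaged 29.6 ± 4.97 CPM in Dahomey and 16.6 ± 2.04 CPM in Alstonville larvae on 1:16 and 30.8 ± 1.25 and 30.9 ± 4.24 CPM on 1:2 (0.84 ± 0.18). The nucleotide pool enzyme gene dUTPase averaged 28.6 ± 6.78 CPM in Dahomey and 14.4 ± 2.05 CPM in Alstonville larvae on 1:16 and 33.9 ± 1.86 and 34.1 ± 2.72 CPM on 1:2 (0.99 ± 0.20). Over the list the Alstonville libraries on 1:16 were below the other 12 for 21 of 35 genes (against 7.85% of all genes).

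**Figure D3:**
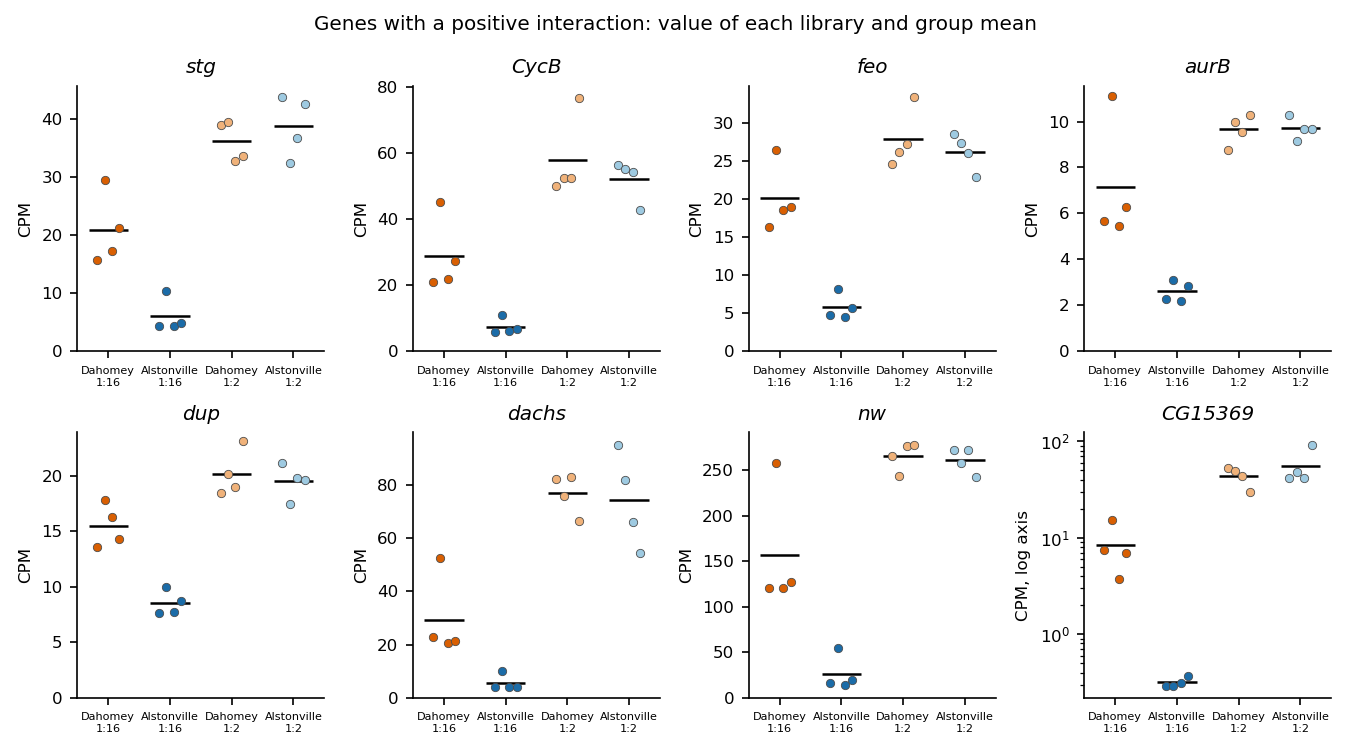
CPM of 8 called genes with a positive interaction, one point per library and a line at the group mean (4 libraries per group, CG15369 on a log axis). In each panel the Alstonville 1:16 libraries sit lowest, at 4.34 to 10.4 CPM for stg and 0.291 to 0.37 CPM for CG15369.

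The positive calls outside the lists included dachs, nw, rn, zld, pdm3 and fd96Cb. Some were picked after their values were seen, and they form no tested group. For dachs the libraries on 1:16 gave 23, 52.6, 20.7 and 21.3 CPM in Dahomey and 4.02, 9.92, 4.2 and 4.2 CPM in Alstonville larvae, and those on 1:2 gave 82, 75.6, 83 and 66.5 CPM in Dahomey and 95, 81.6, 65.9 and 54.4 CPM in Alstonville larvae. dachs had an interaction of 2.34 ± 0.49 (adjusted p = 0.0467). Dachs is an unconventional myosin of the Fat and Hippo growth pathway, and its transcripts were lower on 1:16 than on 1:2 in both mitotypes. nw had 121, 258, 121 and 127 CPM in Dahomey and 16.2, 54.9, 14.1 and 20 CPM in Alstonville larvae on 1:16, and 265, 243, 276 and 278 CPM in Dahomey and 272, 258, 272 and 242 CPM in Alstonville larvae on 1:2. For nw the log2 interaction was 2.55 ± 0.53 (adjusted p = 0.0467). The gene nw takes its name from a narrow wing, and replicate 2 stood far above the other 3 libraries in both groups on 1:16. On 1:16, rn transcripts measured 9.41, 21.6, 8.51 and 9.99 CPM in Dahomey against 1.59, 4.32, 1.24 and 1.25 CPM in Alstonville libraries, and on 1:2 they measured 20.2, 19.1, 21.4 and 18.3 CPM in Dahomey against 21.2, 17.8, 21.3 and 16.3 CPM in Alstonville libraries. rn gave a log2 interaction of 2.51 ± 0.53 (adjusted p = 0.0489). Rotund (rn) is a zinc finger factor of leg and wing patterning. The zygotic genome activator gene zld averaged 63.5 ± 8.59 CPM in Dahomey and 32 ± 5.87 CPM in Alstonville larvae on 1:16 and 59.8 ± 6.3 and 61.1 ± 6.03 CPM on 1:2 (1.02 ± 0.19), and the POU homeodomain gene pdm3 averaged 17.5 ± 5.48 CPM in Dahomey and 5.89 ± 1.56 CPM in Alstonville larvae on 1:16 and 31.2 ± 1.4 and 29.1 ± 4.96 CPM on 1:2 (1.47 ± 0.29). For the forkhead gene fd96Cb the interaction was 3.71 ± 0.63, on means of 3.86 ± 1.97 CPM in Dahomey and 0.349 ± 0.278 CPM in Alstonville larvae on 1:16 and 8.29 ± 0.561 and 10 ± 3.34 CPM on 1:2.

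A target gene and an antagonist of Notch signalling were among the positive calls. E(spl)mdelta-HLH levels in Dahomey libraries on 1:16 were 1.18, 3.75, 0.796 and 1.83 CPM, against 0.0837, 0.249, 0.177 and 0.185 CPM in the Alstonville libraries. On 1:2, E(spl)mdelta-HLH levels were 5.62, 3.62, 6.08 and 3.7 CPM in Dahomey against 5.76, 4.48, 3.4 and 3.38 CPM in Alstonville libraries. The interaction of E(spl)mdelta-HLH came to 3.25 ± 0.63 on the log2 scale (adjusted p = 0.0377). The Alstonville libraries on 1:16 held 2 to 6 reads of this Notch-induced repressor gene, so that its fold rests on few counts. Insensible (insb), a nuclear inhibitor of Notch output, averaged 2.62 ± 0.425 CPM in Dahomey and 0.86 ± 0.299 CPM in Alstonville larvae on 1:16 and 1.52 ± 0.118 and 1.62 ± 0.089 CPM on 1:2 (1.69 ± 0.35). On a list of 25 tested Notch pathway genes, which does not hold either of them, 0 were called. At an unadjusted p under 0.05 the list held 11 positive and 2 negative genes (against 5.99% and 9.19% of all genes), and its median was 0.42. Its 3 lowest p belonged to E(spl)mgamma-HLH (interaction 1.95, adjusted p = 0.0651), E(spl)m7-HLH (2.92, 0.0804) and the ubiquitin ligase gene neur (-0.60, 0.0876) in edgeR's quasi-likelihood test.

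The largest positive values came from genes at or near the floor in Alstonville larvae on 1:16. Expression of CG15369 was 7.48, 15.2, 3.77 and 6.97 CPM in Dahomey and 0.293, 0.291, 0.31 and 0.37 CPM in Alstonville libraries on 1:16. On 1:2 CG15369 was 52.7, 48.6, 43.8 and 29.9 CPM in Dahomey and 41.7, 47.8, 41.4 and 92.3 CPM in Alstonville libraries. With 5.06 ± 0.58, CG15369 had an adjusted p of 0.00446 for the log2 interaction. The 4 Alstonville libraries on 1:16 held 7 or 8 reads each. For CG3397 the libraries on 1:16 gave 7.48, 9.3, 20.7 and 12 CPM in Dahomey and 0.209, 0.706, 0.133 and 0.277 CPM in Alstonville larvae, and those on 1:2 gave 15.5, 9.14, 11.1 and 12.3 CPM in Dahomey and 18.5, 19, 3.55 and 5.19 CPM in Alstonville larvae. CG3397 had an interaction of 5.14 ± 0.84 (adjusted p = 0.0283). With 3 to 17 reads in Alstonville libraries on 1:16, the size of this value is uncertain though its libraries do not overlap. CG6012 had 6.8, 7.06, 4.57 and 6.33 CPM in Dahomey and 0.879, 0.374, 0.841 and 1.2 CPM in Alstonville larvae on 1:16, and 7.08, 7.92, 9.59 and 5.36 CPM in Dahomey and 9.26, 8.67, 9.79 and 6.76 CPM in Alstonville larvae on 1:2. For CG6012 the log2 interaction was 3.11 ± 0.40 (adjusted p = 0.00914). CG42847 had an interaction of 3.55 ± 0.68, with 0 to 5 reads in Alstonville libraries on 1:16. CG15369, CG6012, the receptor gene Ir68a and the negative gene CG15414 were the 4 genes called in every fit that left out 1 library.

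For 5 positive genes (Ir68a, CG33267, insb, zld and CG3397) Dahomey larvae on 1:16 had the highest of the 4 means, by less than their SD for zld and CG3397. Ir68a encodes an ionotropic receptor of humidity-sensing neurons. On 1:16, Ir68a transcripts measured 3.44, 4.86, 3.14 and 2.32 CPM in Dahomey against 0.209, 0.374, 0.354 and 0.277 CPM in Alstonville libraries, and on 1:2 they measured 1.63, 1.33, 1.14 and 1.47 CPM in Dahomey against 0.853, 0.87, 0.763 and 0.885 CPM in Alstonville libraries. Ir68a gave a log2 interaction of 2.76 ± 0.38 (adjusted p = 0.015). Dahomey larvae on 1:16 were highest and Alstonville larvae on 1:16 lowest. CG33267 levels in Dahomey libraries on 1:16 were 55.6, 28.2, 51.9 and 67.9 CPM, against 7.37, 4.77, 8.81 and 11.1 CPM in the Alstonville libraries. On 1:2, CG33267 levels were 0.382, 0.538, 0.316 and 0.351 CPM in Dahomey against 0.882, 0.395, 0.342 and 0.644 CPM in Alstonville libraries. The interaction of CG33267 came to 3.17 ± 0.51 on the log2 scale (adjusted p = 0.0266). CG33267 was the 1 positive gene for which Alstonville libraries on 1:16 were not below the other 12, since all libraries on 1:2 were under 1 CPM.

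Among negative genes the lowest p of all genes tested belonged to CG15414, which lies on chromosome arm 2L from 3480755 to 3491071 in the Release 6 plus ISO1 MT assembly. Expression of CG15414 was 13.2, 14.9, 12.6 and 12.5 CPM in Dahomey and 51.9, 37.6, 47 and 52.8 CPM in Alstonville libraries on 1:16. On 1:2 CG15414 was 21.1, 21.1, 21.3 and 21.8 CPM in Dahomey and 20.8, 22.2, 15.6 and 19.8 CPM in Alstonville libraries. With -1.95 ± 0.17, CG15414 had an adjusted p of 0.000235 for the log2 interaction. Dahomey libraries on 1:16 were the lowest and Alstonville libraries on 1:16 the highest of all, with both groups on 1:2 between them. It was called in all 11 alternatives that kept all libraries, in all 16 fits without 1 library and in all 3 fits without several. No function is given for this gene in the table of names used here.

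Synapse and neuropeptide genes were among the negative calls. On a list of 57 tested synapse and neuropeptide genes, also drawn up after values were seen, 6 were called negative (against 0.408% of all genes) and 0 positive, 35 reached an unadjusted p under 0.05 with a negative sign (against 9.19% of all genes) and 0 with a positive sign, and the median was -0.44. The calls were 0 without Dahomey 1:16 replicate 4, Alstonville 1:16 replicate 1 or 3 or Dahomey 1:2 replicate 1, and 0 in both fits without 4 libraries chosen by male RNA. They were 1 without Alstonville 1:16 replicate 4, Dahomey 1:2 replicate 3 or Alstonville 1:2 replicate 1 or 2, 3 without Dahomey 1:2 replicate 2, and 12 without Alstonville 1:2 replicate 4. Alstonville libraries on 1:16 lay above the other 12 for 33 of the 57 (against 17.0% of all genes). The list summed to 1571, 1622, 1578 and 1458 CPM in Dahomey against 2003, 1997, 2008 and 1972 CPM in Alstonville libraries on 1:16, and to 1370 to 1530 CPM in Dahomey and 1381 to 1494 CPM in Alstonville larvae on 1:2.

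Short neuropeptide F (sNPF) is a peptide that promotes feeding and growth in flies. For sNPF the libraries on 1:16 gave 12.3, 9.75, 14.5 and 12.4 CPM in Dahomey and 21, 23.4, 24.5 and 27.4 CPM in Alstonville larvae, and those on 1:2 gave 5.38, 5.13, 5.09 and 5.13 CPM in Dahomey and 4.5, 4.67, 5.82 and 5.79 CPM in Alstonville larvae. sNPF had an interaction of -0.97 ± 0.17 (adjusted p = 0.0315). Both groups on 1:16 were above all libraries on 1:2, with Alstonville larvae further above. Peptide hormones are cut from their precursors by the convertase Amontillado (amon) with the help of its chaperone 7B2. amon had 28.1, 26.5, 28 and 24.5 CPM in Dahomey and 38.6, 35.1, 37.1 and 40.6 CPM in Alstonville larvae on 1:16, and 15.9, 16.2, 16.4 and 16.5 CPM in Dahomey and 15.9, 14.8, 15.2 and 17.1 CPM in Alstonville larvae on 1:2. For amon the log2 interaction was -0.55 ± 0.09 (adjusted p = 0.0283). The chaperone gene moved with its convertase. On 1:16, 7B2 transcripts measured 23.5, 21.6, 24.5 and 21.2 CPM in Dahomey against 33.6, 30.8, 37 and 30.7 CPM in Alstonville libraries, and on 1:2 they measured 10.3, 9.32, 10.2 and 9.31 CPM in Dahomey against 8.03, 8.38, 9.27 and 9.94 CPM in Alstonville libraries. 7B2 gave a log2 interaction of -0.68 ± 0.12 (adjusted p = 0.0315). Neither gene had an Alstonville library on 1:16 below 30 CPM or a library on 1:2 above 20 CPM. The Kv4 potassium channel gene Shal had the lowest p of the block. Shal levels in Dahomey libraries on 1:16 were 13.7, 12.2, 14 and 11.5 CPM, against 23.8, 20.9, 22.1 and 21.1 CPM in the Alstonville libraries. On 1:2, Shal levels were 10.8, 9.54, 11.7 and 9.41 CPM in Dahomey against 9.73, 8.7, 9.61 and 7.56 CPM in Alstonville libraries. The interaction of Shal came to -0.99 ± 0.14 on the log2 scale (adjusted p = 0.0169).

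For the acetylcholine receptor subunit gene nAChRalpha5 the interaction was -0.70 ± 0.13, for the synaptic vesicle GTPase gene Rab3 -0.56 ± 0.11, and for dysc, a regulator of potassium channels and rhythmic behaviour, -0.47 ± 0.08. It was -0.52 ± 0.09 for the neural RNA-binding protein gene cpo, -0.86 ± 0.17 for unc-13-4A of the Unc13 family of exocytosis factors, and -0.84 ± 0.17 for jus, a gene of seizure sensitivity. The soluble guanylyl cyclase subunit gene Gycalpha99B averaged 5.01 ± 0.312 CPM in Dahomey and 7.15 ± 0.304 CPM in Alstonville larvae on 1:16 and 3.26 ± 0.368 and 2.73 ± 0.291 CPM on 1:2 (-0.77 ± 0.16). These 7 interactions lay between -0.86 and -0.47.

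The largest negative values came from 2 cuticle genes, while the cuticle lists as a whole had few calls. Tweedle proteins are structural proteins of insect cuticle, and TwdlO (3R, 26625932 to 26626738) and TwdlN (3R, 26631869 to 26632956) are neighbours. Expression of TwdlO was 1.18, 0.241, 0.838 and 0.317 CPM in Dahomey and 273, 187, 339 and 390 CPM in Alstonville libraries on 1:16. On 1:2 TwdlO was 0.0347, 0.0358, 0.0633 and 0.0319 CPM in Dahomey and 0.0588, 0.0791, 0.158 and 0.0402 CPM in Alstonville libraries. With -7.87 ± 1.44, TwdlO had an adjusted p of 0.0346 for the log2 interaction. Alstonville libraries on 1:16 held 4503 to 8452 reads and Dahomey libraries on 1:16 7 to 28, while no library on 1:2 held more than 6. For TwdlN the libraries on 1:16 gave 0.21, 0.103, 0.21 and 0.0704 CPM in Dahomey and 8.08, 5.93, 11.2 and 16.4 CPM in Alstonville larvae, and those on 1:2 gave 0.0694, 0, 0.0633 and 0.0319 CPM in Dahomey and 0.0294, 0, 0.0263 and 0.0805 CPM in Alstonville larvae. TwdlN had an interaction of -6.47 ± 1.11 (adjusted p = 0.0306). The other 12 libraries held at most 5 reads of TwdlN, and the fitted interaction of both genes depends on such counts. Members of this family resemble each other, so reads may be split between copies. Of 16 tested Tweedle genes these 2 were called (against 0.408% of all genes called negative). In all 4 had an unadjusted p under 0.05 with a negative and 1 with a positive sign (against 9.19% and 5.99% of all genes), and the interaction ranged from -7.87 to 2.90.

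The larval cuticle gene Lcp65Af averaged 0.938 ± 0.444 CPM in Dahomey and 12.2 ± 4.78 CPM in Alstonville larvae on 1:16 and 0.109 ± 0.0513 and 0.136 ± 0.0783 CPM on 1:2 (-3.42 ± 0.68). It was the 1 called gene among 72 tested chitin-binding cuticle genes, of which 8 had an unadjusted p under 0.05 with a positive and 6 with a negative sign (against 5.99% and 9.19% of all genes), around a median of 0.60 that was -0.68 without Alstonville 1:2 replicate 4. CG12480 had 0.756, 0.207, 0.754 and 0.246 CPM in Dahomey and 4.18, 3.24, 3.54 and 7.11 CPM in Alstonville larvae on 1:16, and 0.174, 0.0717, 0.0316 and 0.191 CPM in Dahomey and 0.0294, 0.0264, 0.105 and 0.0402 CPM in Alstonville larvae on 1:2. For CG12480 the log2 interaction was -4.33 ± 0.90 (adjusted p = 0.0455). Here too the libraries on 1:2 were near the floor and Alstonville larvae on 1:16 were highest.

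NT5E-2, a 5′-nucleotidase gene on 2R from 17485002 to 17493169, had a larger difference between mitotypes on 1:2 than on 1:16, as did Dpp10. On 1:16, NT5E-2 transcripts measured 48.3, 57.4, 65.4 and 49.8 CPM in Dahomey against 52.9, 50.8, 48.2 and 48.9 CPM in Alstonville libraries, and on 1:2 they measured 84.9, 87.7, 53.6 and 27.9 CPM in Dahomey against 5.09, 12.3, 7.26 and 12.8 CPM in Alstonville libraries. NT5E-2 gave a log2 interaction of -2.63 ± 0.47 (adjusted p = 0.0315). The log2 difference of Dahomey over Alstonville was 0.14 ± 0.33 (SE) on 1:16 and 2.77 ± 0.35 on 1:2. The 4 Alstonville libraries on 1:2 were below all other 12. Dpp10, of the dipeptidyl peptidase family that in mammals binds Kv4 channels, had the same direction on 1:2. Dpp10 levels in Dahomey libraries on 1:16 were 15.5, 14.3, 17.1 and 15.5 CPM, against 18.8, 18.3, 18.1 and 21.5 CPM in the Alstonville libraries. On 1:2, Dpp10 levels were 15.3, 12.5, 12.1 and 9.82 CPM in Dahomey against 8.44, 8.38, 6.87 and 5.51 CPM in Alstonville libraries. The interaction of Dpp10 came to -1.06 ± 0.20 on the log2 scale (adjusted p = 0.0377). Its log2 difference of Dahomey over Alstonville was -0.30 on 1:16 and 0.77 on 1:2.

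**Figure D4:**
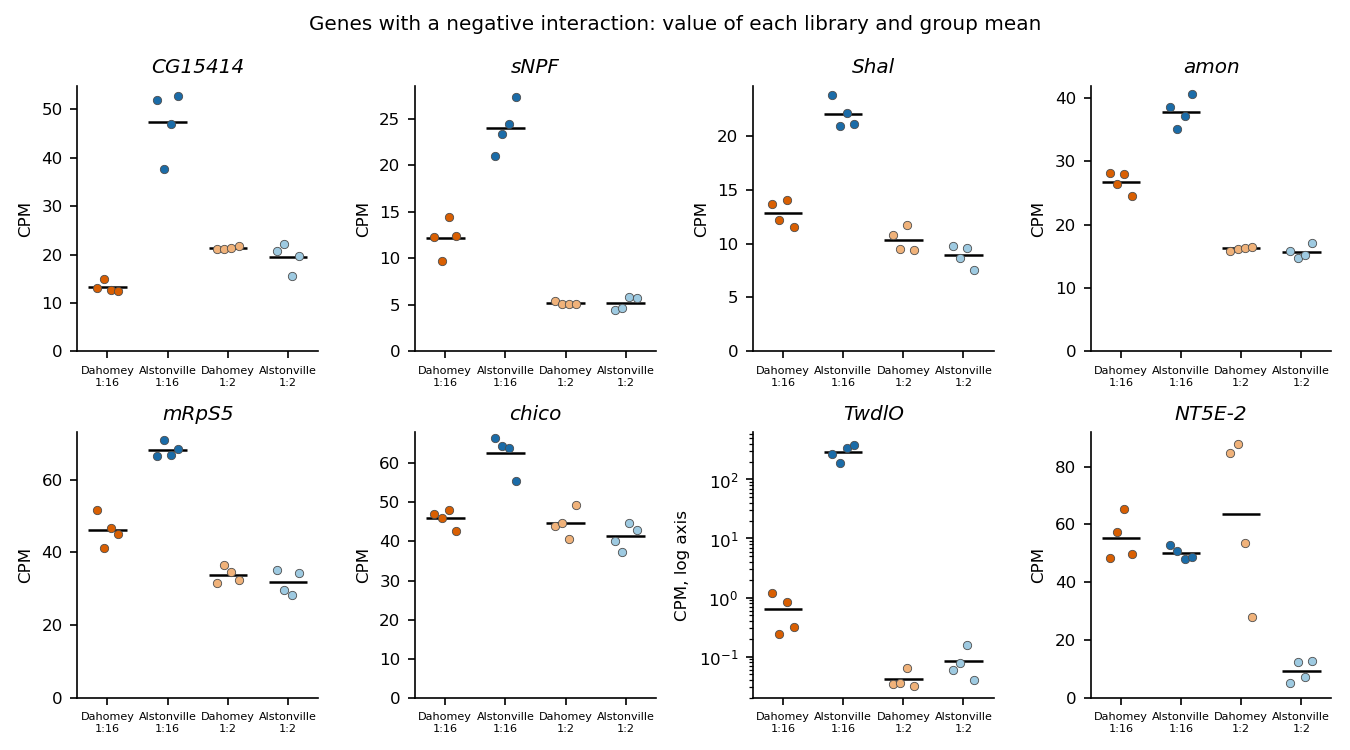
CPM of 8 called genes with a negative interaction, one point per library and a line at the group mean (4 libraries per group, TwdlO on a log axis). Alstonville 1:16 libraries are highest for 7 of the genes. For NT5E-2 the Alstonville 1:2 libraries are lowest, at 5.09 to 12.8 CPM.

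The negative calls also held single genes of immunity, lipid handling and insulin signalling. Expression of PGRP-LC was 57.5, 52.1, 50.8 and 43 CPM in Dahomey and 89.5, 78.3, 90.2 and 83.3 CPM in Alstonville libraries on 1:16. On 1:2 PGRP-LC was 55, 48.1, 45.6 and 48.8 CPM in Dahomey and 51.3, 47.3, 43.5 and 41.7 CPM in Alstonville libraries. With -0.85 ± 0.14, PGRP-LC had an adjusted p of 0.0266 for the log2 interaction. PGRP-LC is the receptor that senses bacterial peptidoglycan for the Imd pathway, and its Alstonville libraries on 1:16 were the highest of the 16. On a list of 20 tested antimicrobial peptide genes and their regulators 0 were called, 4 had an unadjusted p under 0.05 with a negative and 0 with a positive sign (against 9.19% and 5.99% of all genes), and the median was -0.82. AttC of that list averaged 3.30 CPM in Dahomey and 47.8 CPM in Alstonville larvae on 1:16, and 13.5 and 30.2 CPM on 1:2 (interaction -2.69, adjusted p = 0.0578 by edgeR's quasi-likelihood test). The Jak/Stat factor gene Stat92E averaged 251 ± 15.8 CPM in Dahomey and 402 ± 30.5 CPM in Alstonville larvae on 1:16 and 396 ± 38.4 and 392 ± 36.1 CPM on 1:2 (-0.69 ± 0.13).

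On a list of 29 tested genes of fat synthesis and breakdown 0 were called, 2 had an unadjusted p under 0.05 with a positive and 2 with a negative sign (against 5.99% and 9.19% of all genes), and the median was -0.04 (0.09 with upper-quartile scaling). Among called genes outside that list, the lipophorin receptor gene LpR2 averaged 57 ± 2.67 CPM in Dahomey and 111 ± 15.4 CPM in Alstonville larvae on 1:16 and 70 ± 10.9 and 68.9 ± 6.88 CPM on 1:2 (-0.98 ± 0.17), the ceramide synthase gene schlank 126 ± 9.76 CPM in Dahomey and 206 ± 11.7 CPM in Alstonville larvae on 1:16 and 181 ± 20.3 and 183 ± 22.3 CPM on 1:2 (-0.69 ± 0.15), and the sphingosine kinase gene Sk1 26.4 ± 4.56 CPM in Dahomey and 66.7 ± 7.85 CPM in Alstonville larvae on 1:16 and 42.2 ± 9.4 and 39.8 ± 8.59 CPM on 1:2 (-1.42 ± 0.27). For each of these Dahomey larvae on 1:16 had the lowest of the 4 means. In the insulin pathway 1 of 24 tested genes was called negative (against 0.408% of all genes) and 0 positive, 9 had an unadjusted p under 0.05 with a negative sign (against 9.19%), and the median was -0.34. For chico the libraries on 1:16 gave 46.9, 46, 48 and 42.6 CPM in Dahomey and 66.4, 64.3, 63.8 and 55.5 CPM in Alstonville larvae, and those on 1:2 gave 44, 44.8, 40.6 and 49.3 CPM in Dahomey and 40.2, 37.3, 44.6 and 43 CPM in Alstonville larvae. chico had an interaction of -0.56 ± 0.11 (adjusted p = 0.0397). Chico is the insulin receptor substrate that passes the signal from the receptor to PI3 kinase. The receptor gene InR had an interaction of -1.22, with 52.2 CPM in Dahomey and 109 CPM in Alstonville larvae on 1:16 and 73.8 and 65.9 CPM on 1:2, and was not called (adjusted p = 0.0773 by edgeR's quasi-likelihood test).

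The remaining named negative genes without a list were CG5326, CG42700, CG2269, CG31886 and CG11131. CG5326 had 15.1, 11.5, 13.7 and 12.1 CPM in Dahomey and 40, 31.6, 40.5 and 42.1 CPM in Alstonville larvae on 1:16, and 6.11, 6.17, 6.45 and 6.92 CPM in Dahomey and 6.38, 5.75, 8.27 and 8.93 CPM in Alstonville larvae on 1:2. For CG5326 the log2 interaction was -1.37 ± 0.20 (adjusted p = 0.0181). The libraries of the 2 diets did not overlap for CG5326 in either mitotype. On 1:16, CG11131 transcripts measured 16, 7.17, 17.6 and 12 CPM in Dahomey against 77, 49.6, 87.3 and 83.4 CPM in Alstonville libraries, and on 1:2 they measured 13.3, 16.2, 10.6 and 18.7 CPM in Dahomey against 7.17, 6.72, 10.4 and 17.7 CPM in Alstonville libraries. CG11131 gave a log2 interaction of -2.99 ± 0.48 (adjusted p = 0.0266). In both genes the Alstonville libraries on 1:16 were the highest of all. For CG42700, CG2269 and CG31886 the interaction was -0.91 ± 0.14, -0.82 ± 0.12 and -1.14 ± 0.17.

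Mitochondrial genes leaned negative by small amounts. Of 72 tested mitochondrial ribosomal protein genes 1 was called negative (against 0.408% of all genes) and 0 positive. On this list 34 had an unadjusted p under 0.05 with a negative and 0 with a positive sign (against 9.19% and 5.99% of all genes), and the median was -0.37. mRpS5 levels in Dahomey libraries on 1:16 were 51.6, 41.1, 46.6 and 45 CPM, against 66.4, 70.8, 66.7 and 68.5 CPM in the Alstonville libraries. On 1:2, mRpS5 levels were 31.5, 36.5, 34.7 and 32.4 CPM in Dahomey against 35.1, 29.7, 28.4 and 34.4 CPM in Alstonville libraries. The interaction of mRpS5 came to -0.65 ± 0.12 on the log2 scale (adjusted p = 0.0373). All 4 Alstonville libraries on 1:16 were above the other 12 for mRpS5 and for 53 of the 72 genes (against 17.0% of all genes). Of 19 tested mtDNA-encoded genes 0 were called, 7 had an unadjusted p under 0.05 with a negative sign (against 9.19% of all genes), and the median was -0.56, lower than the -0.30 of 39 nuclear complex I genes (0 called, 0 at an unadjusted p under 0.05) and the -0.26 of 43 nuclear genes for complexes II to V (0 and 0). On 1:2 the median log2 difference of Dahomey over Alstonville was 0.16 for the mtDNA-encoded genes and -0.19 for nuclear complex I, and on 1:16 it was -0.35 and -0.51. The list of complexes II to V also held COX7AL and UQCR-14L, which on 1:2 were highest in the libraries with male RNA. COX7AL measured 0.104, 0.932, 0.0316 and 7.02 CPM in Dahomey and 0.118, 3.43, 1.82 and 0.0805 CPM in Alstonville libraries there. The part of such genes in the medians was not tested. With upper-quartile scaling the median interaction was -0.43 for mtDNA-encoded genes, -0.18 for nuclear complex I and -0.14 for complexes II to V. Single values also depended on the libraries kept on 1:2. ND5, ND1, ND4 and ATP6 gave -0.76, -0.71, -0.66 and -0.36 with all libraries. Without the 4 libraries with male RNA they gave -0.33, -0.32, -0.26 and -0.02, and mRpS5 gave -0.41. Without the 4 low in male RNA the same genes gave -1.04, -0.98, -0.93, -0.58 and -0.75. ND6 went the other way, with -1.34 and -0.38. The first of these fits kept Alstonville 1:2 replicate 4 and the second left it out. ND5 was 842 CPM in that library and 536, 558 and 507 CPM in the rest of its group. Without that library and Dahomey 1:16 replicate 2, ND5 gave -0.82 and ND4 -0.77. Male RNA and this library therefore cannot be told apart in the fits without 4 libraries. The carrier gene Slc25A46a, whose family member acts in mitochondrial fission in mammals, had an interaction of -0.40 ± 0.09, and fbl, the pantothenate kinase of coenzyme A synthesis, one of -0.70 ± 0.14.

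The median over genes for cytosolic ribosomal proteins was -0.28, and 80 of 85 lay below 0, with 0 called and 6 at an unadjusted p under 0.05 with a negative sign (against 9.19% of all genes). For 72 of them the Alstonville libraries on 1:16 were above the other 12 (against 17.0% of all genes). The aminoacyl-tRNA synthetase genes had a median of -0.19 (35 tested, 0 called, 6 at an unadjusted p under 0.05, all negative, against 9.19% of all genes). By contrast 45 of 48 proteasome subunit genes lay above 0 with a median of 0.14 (-0.12 without Dahomey 1:16 replicate 2), and 0 were called or reached an unadjusted p under 0.05. Their upper quartile was 1.43 and their highest value 6.73. For 2 of the 48 a whole group held no counts. The part of male RNA in these values was not tested. TCA cycle genes had a median of -0.17 (25 tested) and glycolysis genes of 0.09 (18 tested), with 0 called and 0 at an unadjusted p under 0.05 in both.

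Lists tied to the stage of the larvae held no calls, with medians between 0.13 and 6.75. The 7 glue genes had a median of 6.75, and all 7 reached an unadjusted p under 0.05, while 0 were called. Their sum was 2768 CPM in 1 Dahomey library on 1:16 and at most 6.76 CPM in the other 3, against 5.13 to 7.43 CPM in Alstonville libraries on 1:16, and without that library the median was -0.14. The 6 storage protein genes had a median of 3.27, with 0 called and 2 at an unadjusted p under 0.05. Lsp2 of this list measured 1222, 13067, 491 and 2743 CPM in Dahomey against 8.12, 157, 8.45 and 15.9 CPM in Alstonville libraries on 1:16, and 14225 to 24939 CPM in all 8 libraries on 1:2 (interaction 6.69, adjusted p = 0.0575 by edgeR's quasi-likelihood test). For Lsp2 every Dahomey library exceeded every Alstonville library on 1:16. Lsp1beta did not follow this order, with 23012, 16875, 22683 and 26036 CPM in Dahomey and 5415, 28854, 5239 and 11333 CPM in Alstonville libraries on 1:16. On 1:2 Lsp1beta was 3673 to 10144 CPM in Dahomey and 1441 to 30869 CPM in Alstonville libraries. Genes of ecdysone synthesis in the prothoracic gland had a median of 0.70 (11 tested, 0 called, 3 at an unadjusted p under 0.05 with a positive sign), and ecdysone response genes one of 0.13 (25 tested, 0 called, 3 positive). At that threshold 5.99% of all genes were positive. Of 23 heat shock genes 0 were called, and 8 had an unadjusted p under 0.05 with a positive and 1 with a negative sign (against 5.99% and 9.19% of all genes). Hsp70Aa of this list averaged 19.5 CPM in Dahomey and 22.3 CPM in Alstonville larvae on 1:16, and 1.84 and 18.3 CPM on 1:2 (adjusted p = 0.0961 by edgeR's quasi-likelihood test). The Hsp70 copies are nearly identical, so reads may be split between them. The list of male and testis markers (35 tested) had a median of 2.40, with 29 genes above 0 and 6 below. On that list 0 genes were called and 0 reached an unadjusted p under 0.05. Its median log2 difference of Dahomey over Alstonville was 3.22 on 1:16 and 0.68 on 1:2.

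**Figure D5:**
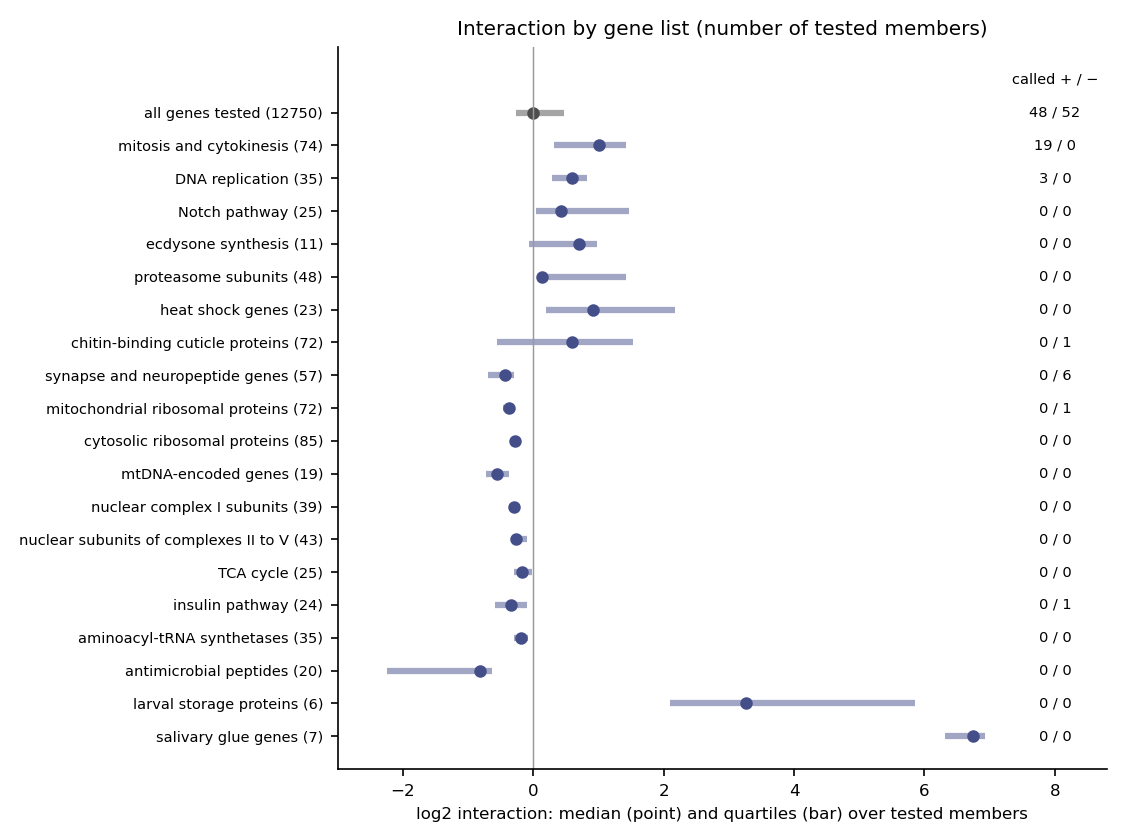
Median (point) and quartiles (bar) of the log2 interaction over the tested members of 19 gene lists and over all genes tested, with the number of genes called positive and negative at the right. The list of male and testis markers (median 2.40) is not drawn. Mitosis genes (median 1.01, 19 called positive) and synapse genes (median -0.44, 6 called negative) hold most of the calls on lists. The mitosis and synapse lists were drawn up after values were seen. Their medians and counts therefore cannot be compared on equal terms with those of the other lists. The glue genes have the largest median (6.75) with 0 called.

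A further list holds genes that were also assayed by RT-qPCR, and those assays were not analysed here. In the RNA-seq counts 0 of these 16 genes were called, and 2 had an unadjusted p under 0.05 with a positive and 7 with a negative sign (against 5.99% and 9.19% of all genes). Expression of GstE1 was 31.6, 28.7, 34.5 and 21.6 CPM in Dahomey and 41.6, 36.2, 43.2 and 44.5 CPM in Alstonville libraries on 1:16. On 1:2 GstE1 was 19.1, 22.3, 21.8 and 22.5 CPM in Dahomey and 6.7, 7.17, 7.11 and 18.1 CPM in Alstonville libraries. With -1.65 ± 0.38, GstE1 had an adjusted p of 0.0617 for the log2 interaction. GstE1 is a glutathione S-transferase gene of detoxification, and its log2 difference of Dahomey over Alstonville was -0.51 on 1:16 and 1.14 on 1:2. For N the libraries on 1:16 gave 48.5, 112, 47 and 57 CPM in Dahomey and 18.7, 34.1, 20.1 and 19.1 CPM in Alstonville larvae, and those on 1:2 gave 163, 163, 181 and 131 CPM in Dahomey and 196, 164, 141 and 115 CPM in Alstonville larvae. N had an interaction of 1.47 ± 0.40 (adjusted p = 0.0938). N encodes the Notch receptor, and its Alstonville libraries on 1:16 lay below all other libraries. For bmm, the brummer fat lipase gene, the interaction was 1.06 ± 0.39 (adjusted p = 0.201), for the insulin-like peptide gene Ilp2 -0.87 ± 0.28 (0.146), for the mitochondrial transcription factor gene TFAM -0.27 ± 0.09 (0.155), and for the glucose-6-phosphate dehydrogenase gene Zw -0.54 ± 0.18 (0.167), all by edgeR's quasi-likelihood test. Of the mtDNA-encoded genes, ND4 gave -0.66 ± 0.27 (0.249), srRNA -0.54 ± 0.19 (0.169), and lrRNA, ATP6 and ND6 adjusted p-values of 0.493, 0.559 and 0.573. The other 5 genes (CrebB, eloF, ERR, Glyp and GstE5) had adjusted p-values of 0.322 or higher.

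The called genes were spread over the chromosomes. There were 13 on X of 2047 tested, 22 on 2L of 2328, 20 on 2R of 2614, 21 on 3L of 2479 and 24 on 3R of 3116. On chromosome 4, the one that could differ between the lines, 0 of 94 tested genes were called (against 0.784% of all genes), and the median interaction was -0.03. At that share 94 genes are too few for 0 calls to tell chromosome 4 from the other chromosomes. The 6 tested Y-linked genes and the 19 mtDNA-encoded genes held 0 calls.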

How the data were processed

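Poly(A)-selected RNA of larvae was sequenced by the authors in pairs of reads. Subread placed the reads on assembly Release 6 plus ISO1 MT, and featureCounts assigned them to genes. The deposited values are raw counts per gene, not normalized, and treatment of strand and of multiply mapped reads is not given in the sources used here. The 16 columns of the series table and the files of single libraries differed in 0 values. Of 17207 gene IDs 17063 had a name in a RefSeq table of the same assembly.

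Genes with 0.25 CPM in at least 4 libraries (12750) were fitted with 1 coefficient per group in edgeR 4.0.16 (R 4.3.3) after TMM scaling (factors 0.794 to 1.21), with robust quasi-likelihood dispersion, 12 residual degrees of freedom and a common biological coefficient of variation of 0.521. SE is the size of the log2 value over the square root of F. Benjamini-Hochberg adjustment covered every gene tested, with a threshold of 0.05. CPM in the text are TMM-scaled. The surrogate variables of the study's limma fit were left to the alternatives because their number is not stated. The fit was tested on simulated data.

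Named genes were the 8 of lowest p and 5 of largest interaction in each direction among called genes, called members of gene lists, up to 3 members of lowest p per list, and the genes the study assayed by RT-qPCR. Other names were chosen after values were seen. Genes, lists and tests were chosen with earlier results of these data known, and the mitosis and synapse lists after values were seen. Alternatives were RLE and upper-quartile scaling, 2 filters, DESeq2 1.42.0, limma 3.58.1 with 0 to 3 surrogate variables, a block for replicate number, library sizes without mtDNA-encoded genes, and leaving out libraries. A planned search of promoter sequences for motifs was not run, and no sequence was used here.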

Additional observations from a re-analysis of the deposited data

Results flagged for a closer look

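The interaction itself is a difference between the effects of mitotype on the 2 diets, and 100 genes had an adjusted p under 0.05 for it in edgeR's quasi-likelihood test.

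In 144 groups of 4 libraries examined, 15 had a highest or lowest library far from the other 3. Chance gives about 1 group in 20 where groups are independent. These groups share the same 16 libraries and some hold few reads, so that rate is no measure for the 15. Among positive genes, CG15369 stood at 92.3 CPM in Alstonville 1:2 replicate 4, against 41.4 to 47.8 CPM in the rest of its group. The forkhead gene fd96Cb was 6.79 CPM in Dahomey 1:16 replicate 2, against 2.6 to 3.23 CPM. CG42847 was 8.61 CPM in Alstonville 1:2 replicate 3, against 16.5 to 16.8 CPM. The noncoding gene lncRNA:CR45036 was 0.0885 CPM in Alstonville 1:16 replicate 3, against 0.0415 to 0.0462 CPM, and 0.759 CPM in Dahomey 1:2 replicate 3, against 0.466 to 0.486 CPM. The wing gene nw was 258 CPM in Dahomey 1:16 replicate 2, against 121 to 127 CPM, and 54.9 CPM in Alstonville 1:16 replicate 2, against 14.1 to 20 CPM. CycB was 11.1 CPM in Alstonville 1:16 replicate 2 (5.86 to 6.65 CPM in the others), 76.8 CPM in Dahomey 1:2 replicate 4 (50 to 52.6 CPM) and 42.8 CPM in Alstonville 1:2 replicate 4 (54.2 to 56.5 CPM).

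Among cuticle genes, TwdlO was 0.0633 CPM in Dahomey 1:2 replicate 3, against 0.0319 to 0.0358 CPM, a matter of 1 or 2 reads. Lcp65Af was 19.4 CPM in Alstonville 1:16 replicate 4, against 9.74 to 9.88 CPM.

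Of the summed markers, male and testis genes were 2207 CPM in Dahomey 1:2 replicate 4, against 55.9 to 410 CPM. Glue genes were 2768 CPM in Dahomey 1:16 replicate 2, against 4.83 to 6.76 CPM, and 7.43 CPM in Alstonville 1:16 replicate 2, against 5.13 to 5.5 CPM.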

How the results depend on the processing

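The number of called genes depended on the processing. With all libraries kept it ran from 75 to 1397, against 100, and was 210 (156 positive) with at least 10 counts in every library, 155 (129 positive, 26 negative) with upper-quartile scaling, 130 (82 positive) with RLE scaling, 742 (398 and 344) in DESeq2, and 176 (83 and 93), 942 (321 and 621) and 1397 (456 and 941) in limma with 0, 2 and 3 surrogate variables. The cause was not tested. Without 1 library the count ran from 4 to 396 (3 to 132 positive and 1 to 264 negative). It was 4 without Alstonville 1:16 replicate 1 or 3, Dahomey 1:16 replicate 4 or Dahomey 1:2 replicate 1, 13 without Alstonville 1:16 replicate 4 or Dahomey 1:2 replicate 3, 9 and 10 without replicate 2 of Alstonville and Dahomey on 1:2, 22 and 40 without Alstonville 1:2 replicates 1 and 3, and 56 without Dahomey 1:16 replicate 2. It was 182 without Alstonville 1:16 replicate 2, 244 without Dahomey 1:2 replicate 4 and 396 without Alstonville 1:2 replicate 4. Added after values were seen, leaving out Dahomey 1:16 replicate 2 and Alstonville 1:2 replicate 4 gave 318 (103 and 215), leaving out the 4 libraries on 1:2 low in male RNA 4 (0 and 4), and leaving out the 4 on 1:2 with male RNA 1 (0 and 1). Same-numbered libraries correlated from -0.825 to 0.767 over 24 pairs, 12 of them over 0.1. Of 16 libraries 6 correlated best with their own number, and with a replicate block 136 genes were called. On 1:2 the correlations also went with male RNA. Dahomey replicate 3 gave 0.873 with Alstonville replicate 1, both low in it, and -0.825 with Alstonville replicate 3. They therefore cannot show whether the numbers pair the libraries. All 100 genes kept their sign in all 30 settings. The settings reuse the libraries that the genes were chosen by, so kept signs are no independent support for a direction. Of the 100, 47 were called in each of the 11 alternatives that kept all libraries, and 4 in each of the 16 fits without 1 library. Of 31 named called genes, 17 of 329 values with all libraries kept lost the call, as did 237 of 492 without 1 library and 62 of 93 without several. Depth limits genes near the floor, and the folds of CG15369, CG3397, TwdlO and TwdlN rest on few counts in at least 1 group.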
